A study of Mus musculus with 14 samples.

Results

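Total liver was set against isolated hepatocytes from mice with a fatty liver: 4 arrays of total liver and 3 of hepatocytes, taken by their labels, out of the 14 arrays of the series. All animals were adult male wild-type C57Bl6 mice. The animals of these 7 arrays had eaten CDAA for 2 weeks, a choline-deficient, L-amino acid-defined diet that the labels give as supplemented with cholesterol, glucose and fructose. The other 7 arrays, 4 of total liver and 3 of hepatocytes, came from mice on the choline-sufficient control diet, CSAA, and served to show where the tissue difference on CDAA departed from that on CSAA. Per the labels, hepatocytes were released by perfusion with collagenase and their RNA was taken with the RNeasy Plus kit, while total liver was the caudal lobe after a saline flush through the heart, with RNA taken by the RNeasy Lipid Tissue kit. Lobe, dissociation and kit therefore changed together with the tissue, and their parts in any difference cannot be told apart. The samples are described as independent preparations, without saying whether hepatocytes and liver shared an animal.

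Hepatocytes hold most of the RNA of the liver. They make the plasma proteins, the urea and the bile, and they store triglyceride when fat arrives faster than it can be burned or exported; a lack of choline blocks that export, since lipoproteins need phosphatidylcholine for their coat. Around them sit the Kupffer cells, which are the resident macrophages, the sinusoidal endothelial cells with their open pores, and the stellate cells, which store vitamin A and lay down collagen when activated. A hepatocyte preparation is meant to leave these other cells behind, so total liver would ordinarily carry more of their transcripts. In bulk RNA, fewer cells of a type and less RNA per cell cannot be told apart.

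Levels are log2 array signals after all 14 arrays had been given one common distribution, and a difference is total liver minus hepatocytes, so that a negative value is a gene lower in total liver. A difference of 1 is a 2-fold change in signal; errors are standard errors from limma, and p-values are limma's, adjusted by Benjamini-Hochberg over 22206 probe sets with a threshold of 0.05. A gene was called not above background in a tissue where every array lay under the level that 95% of that array's intron control probe sets do not pass, which was 7.42 to 8.63 in the hepatocyte arrays on CDAA and 9.21 to 9.34 in total liver. The level is one of intron control signal, not a measured limit of detection, and it is not even between the tissues. On CDAA it lay above 77.64% to 78.5% of tested probe sets in total liver and above 65.37% to 73.68% in hepatocytes. For 564 calls lower in total liver only that tissue was under it, and 4 calls ran the other way. Where only the dimmer tissue was under the level, the fitted difference includes signal in the range of those controls. The difference left with that tissue set to its background level is then given as well, and it depends on this bound. Where nothing is left, or both tissues were under background, the call is given without a size. On CSAA 42 of the 114 genes named were under background in both tissues, and differences between the diets for such genes start from unresolved levels. Within a group, arrays correlated at 0.99 to 0.995 in total liver and at 0.954 to 0.981 in hepatocytes on CDAA. Hepatocyte array 1 stood apart from arrays 2 and 3, at 61.6 on the first principal component against 117.11 and 115.24, and results that rest on it are marked below.

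On CDAA, 6946 of 22206 probe sets differed between the tissues, which is 31.3%. Of these 3601 were higher in total liver, 16.2% of those tested, and 3345 were lower, 15.1%. Differences of at least 1 were about as many in each direction, 2095 higher and 2029 lower, but those of at least 3 lay mostly on the hepatocyte side, 78 against 17 in total liver. Many calls concerned dim probe sets: both tissues were under background for 1851 of the calls higher in total liver and for 1600 of the calls lower. The balance of directions depended on the scaling. Over all tested probe sets the median difference was 0.00 after joint normalization and −0.29 when the deposited values were only centred on each array's median, and with that centring 34.6% of the calls were higher in total liver in place of 51.8%. The count of calls also moved with single arrays: 2594 were higher in total liver without hepatocyte array 2, and 2429 were lower without hepatocyte array 3. Groups without overlap were common: 18.1% of all probe sets had every total liver array above every hepatocyte array, and 17.1% had every one below.

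On CSAA the same comparison called 5469 probe sets, 24.6%, with 2624 higher in total liver (11.8%) and 2845 lower (12.8%). The group means compared on the 2 diets shared no array, but the calls were not independent. All arrays were normalized together, and the tests on both diets used a common estimate of each probe set's spread. A probe set with little spread was therefore easier to call on both diets. Of the genes higher in total liver, 1475 were higher on both diets, 41% of the CDAA list and 56.2% of the CSAA list. Of those lower in total liver, 1570 were lower on both, 46.9% and 55.2%. A further 229 were lower in total liver on CDAA and higher there on CSAA, while 6 ran the other way. The test of the difference itself, the tissue difference on CDAA minus that on CSAA, called 667 probe sets, 3% of those tested. Of these 73 were higher on CDAA (0.329%) and 594 lower (2.67%). That split rested on hepatocyte array 1: without it the counts were 1233 and 1308.

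**Figure D1:**
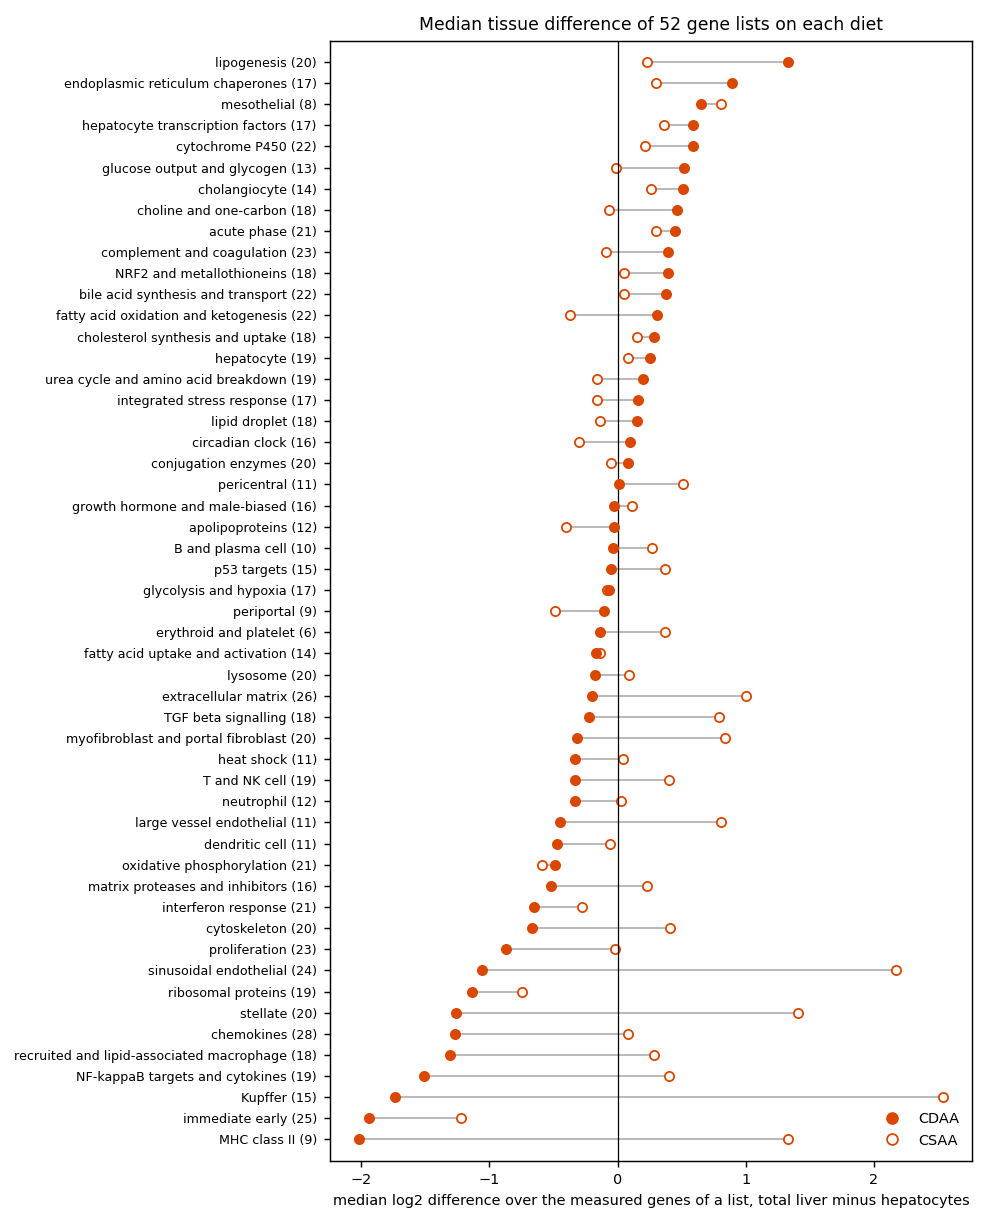
Median log2 difference, total liver minus hepatocytes, over the measured genes of each of 52 gene lists (number of genes in parentheses), on CDAA (filled) and on CSAA (open). The Kupffer list lies at −1.74 on CDAA and at 2.54 on CSAA, and the sinusoidal endothelial list at −1.06 and 2.17, while the hepatocyte list lies near 0 on both diets.

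The labelled hepatocytes on CDAA carried the markers of hepatocytes and, in addition, those of other liver cells. Albumin (Alb), the main plasma protein and the defining hepatocyte transcript, read 19.52, 19.44 and 19.36 in the hepatocyte arrays and 19.52 on each total liver array, at the top of the array's range in both. The common distribution gives probe sets of equal rank the same value on every array. Near-equal levels at the top therefore show similar ranks, not equal amounts. With deposited values centred on array medians Alb differed by −1.67. Clec4f, the C-type lectin that marks Kupffer cells, was at 12.36, 14.58 and 15.55 in the hepatocyte arrays and at 11.04, 11.47, 10.16 and 11.13 in total liver. The hepatocyte preparation thus had the higher Clec4f level on every array, without overlap. The difference was −3.21 ± 0.53 (SE; adjusted p = 0.000569), and on CSAA it was 3.36 with the opposite sign, or 1.11 with hepatocytes, which were under background there, set to that level.

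**Figure D2:**
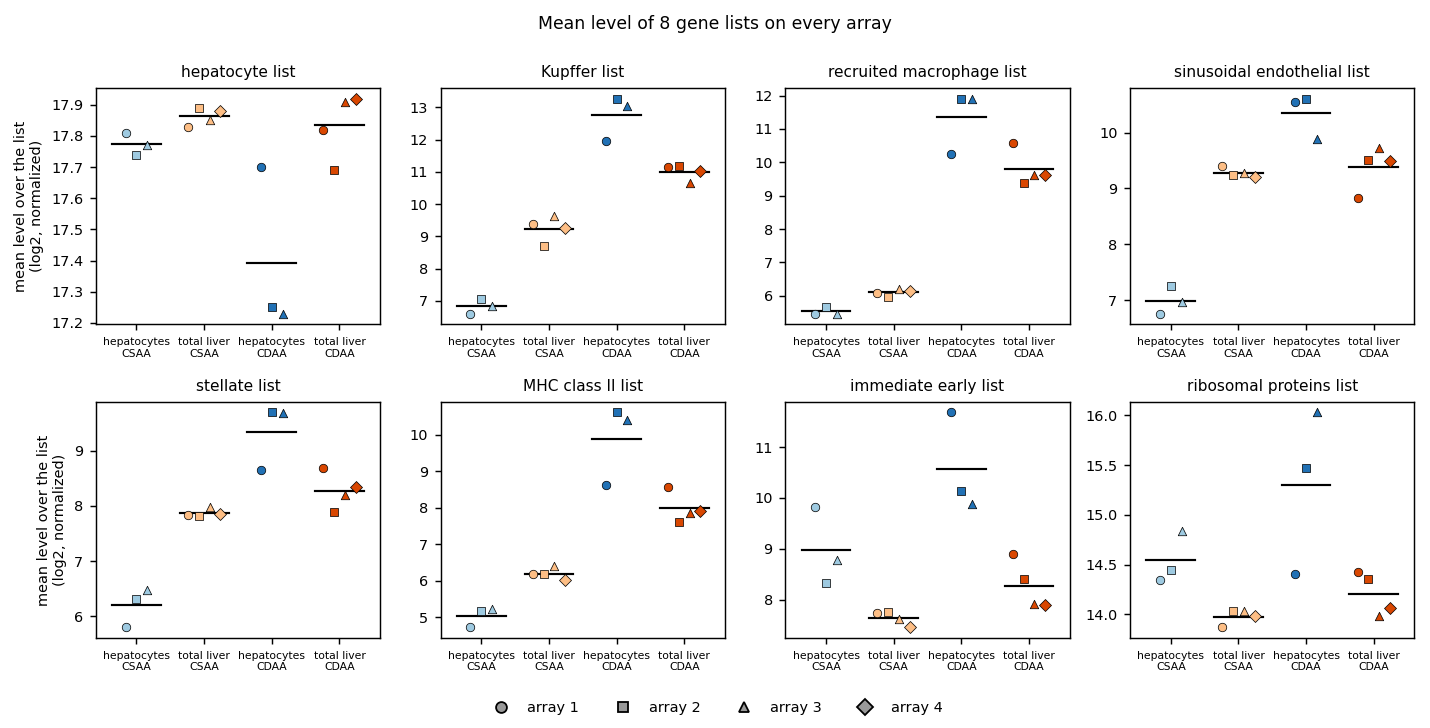
Mean log2 level over the measured genes of 8 lists on each of the 14 arrays, by tissue and diet; each symbol is 1 array, its shape the array's number, and the bar is the group mean. The panels have different axes, which do not start at 0. The Kupffer list spans 11.97 to 13.27 in hepatocytes on CDAA and 10.64 to 11.18 in total liver on CDAA, against 6.61 to 7.06 and 8.7 to 9.63 on CSAA.

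Kupffer cell genes were lower in total liver than in the hepatocyte preparation on CDAA: 12 of 15 measured members passed the test as lower and 0 as higher, with a median of −1.74. On CSAA 13 of the same 15 were higher in total liver, with a median of 2.54, and the difference between the diets was called for 13, each lower on CDAA. Among the complement genes by which resident macrophages are known, C1qa, a chain of the first complement component, was at 13.06, 14.81 and 14.77 in hepatocytes and at 11.87, 11.59, 11.31 and 11.11 in total liver. The groups did not overlap, and the difference was −2.75 ± 0.36 (adjusted p = 0.000151). Its partner chain C1qc differed by −2.59 ± 0.32 (adjusted p = 8.7e-05), with hepatocyte arrays at 12.95 to 14.12 and total liver at 10.6 to 11.44. Cd5l, a protein that macrophages secrete, was bright everywhere, at 15.97, 17.41 and 17.41 in hepatocytes and 15.4, 14.95, 14.7 and 14.96 in total liver. Its difference was −1.92 ± 0.37 (adjusted p = 0.00171). Vsig4, the complement receptor of Kupffer cells, differed by −1.65 ± 0.48 (adjusted p = 0.0186). Its groups overlapped, since hepatocyte array 1 at 12.81 lay under the highest liver array at 12.92, and the call was lost without hepatocyte array 2 (−1.34, adjusted p = 0.0913) or array 3 (−1.26, adjusted p = 0.0967).

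Not every macrophage gene followed. The receptor for macrophage colony-stimulating factor, Csf1r, was at 13.03, 12.65 and 11.91 in hepatocytes and at 12.7, 12.08, 12.04 and 12.21 in total liver, with groups that overlapped and a difference of −0.28 ± 0.28 (adjusted p = 0.478). The haemoglobin scavenger receptor Cd163 was under background in both tissues on CDAA, at 4.79 to 6.57. On CSAA Csf1r was higher in total liver by 4.08, or 1.43 with hepatocytes at background, while Cd163 was under background in both tissues there too. For Csf1r the difference between the diets was −4.36 ± 0.40 (adjusted p = 2.48e-05). The Kupffer list kept its direction under all 16 alternatives on CDAA, with 9 to 13 members lower and 0 higher.

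Genes of recruited and lipid-associated macrophages, which gather in fatty liver, were also lower in total liver: 9 of 18 measured members passed as lower, 0 as higher, with a median of −1.31. On CSAA 6 were higher in total liver and 0 lower, with a median of 0.28. Trem2, the lipid receptor that defines these cells, read 9.73, 12.4 and 13.24 in hepatocytes and 8.92, 7.59, 8.65 and 8.39 in total liver. Every hepatocyte array was above its background and every liver array under it, with a difference of −3.40 ± 0.59 (adjusted p = 0.000822), or −2.50 with total liver set to its background level. Capg, which caps actin filaments in macrophages, was at 9.51, 12.08 and 12.26 against 7.85, 7.39, 7.28 and 7.23, a difference of −3.85 ± 0.51 (adjusted p = 0.000153; −1.99 with total liver at background). Lyz2, the lysozyme of myeloid cells, was at 15.32, 17.48 and 17.52 in hepatocytes and 15.19, 14.19, 13.76 and 14.11 in total liver, so that hepatocyte array 1 lay just above the highest liver array. Its difference was −2.46 ± 0.48 (adjusted p = 0.00181). Mmp12, the macrophage elastase, was among the brightest of these genes at 16.91, 18.52 and 18.54 against 17.29, 16.44, 16.46 and 16.57. Its difference of −1.30 ± 0.37 (adjusted p = 0.0162) was lost without hepatocyte array 2 (−1.03, adjusted p = 0.0849) or array 3 (−1.005, adjusted p = 0.0849). Gpnmb, a glycoprotein of lipid-laden macrophages, had overlapping groups and did not pass (−0.93 ± 0.43, adjusted p = 0.115); without total liver array 1, its highest liver array at 14.35, it did (−1.31).

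The class II antigen presentation genes showed the most negative median of the 52 lists, −2.02, with 7 of 9 measured members lower in total liver and 0 higher. On CSAA 3 were higher in total liver and 0 lower. H2-DMb1, which helps load peptides onto class II molecules, was at 12.07, 14.47 and 14.54 in hepatocytes and at 11.63, 10.06, 10.09 and 10.66 in total liver. The difference was −3.09 ± 0.54 (adjusted p = 0.000889), without overlap. H2-Ab1, the beta chain of the class II molecule itself, was at 13.26, 15.68 and 15.3 against 13.15, 11.23, 12.21 and 12.36. Its lowest hepatocyte array lay just above its highest liver array, and the difference was −2.51 ± 0.52 (adjusted p = 0.00262). In both genes hepatocyte array 1 was the low one and total liver array 1 the high one. The count of 7 dropped to 4 without hepatocyte array 2 or array 3.

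Sinusoidal endothelial genes were lower in total liver or not called, with 1 exception. Of 24 measured members 12 were lower, 1 higher and 11 not called, with a median of −1.06, and the lower count ran from 9 to 17 over the 16 alternatives; on CSAA 21 were higher in total liver and 0 lower. The difference between the diets was called for 19 members, all lower on CDAA. Clec4g, a lectin of the sinusoidal wall, was at 12.98, 14.97 and 15.06 in hepatocytes and at 9.94, 11.59, 11.87 and 11.49 in total liver, a difference of −3.12 ± 0.52 (adjusted p = 0.000652). Fcgr2b, the receptor that clears immune complexes, was at 14.5, 15.59 and 15.01 against 12.04, 13.02, 13.31 and 13.21, a difference of −2.14 ± 0.32 (adjusted p = 0.000319). In both, total liver array 1 was the lowest and no array of one tissue reached the other. Dnase1l3, a secreted nuclease, differed by −2.21 ± 0.38 (adjusted p = 0.00077), and Lyve1, the hyaluronan receptor, by −2.07 ± 0.35 (adjusted p = 0.000711).

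Among the members named because they did not pass were receptors for growth factors. Kdr, the main receptor for vascular endothelial growth factor, was at 12.28, 10.81 and 10.16 in hepatocytes and 10.23, 10.78, 11.13 and 11.11 in total liver. The groups overlapped and the difference was −0.27 ± 0.43 (adjusted p = 0.668). Tek, the angiopoietin receptor, was under background on all 7 arrays and was not called (adjusted p = 0.976). Eng, a coreceptor for TGF beta, was lower in total liver, differing by −1.13 ± 0.34 (adjusted p = 0.02), a call lost without hepatocyte array 1 (−0.83, adjusted p = 0.0717) or total liver array 1 (−1.05, adjusted p = 0.051). On CSAA Kdr and Eng were higher in total liver, by 3.49 (2.59 with hepatocytes at background) and 3.79, and Tek was called higher with both tissues under background. The 1 member higher in total liver on CDAA was Stab1, a scavenger receptor, at 7.04, 6.79, 6.79 and 6.6 against 5.96, 5.03 and 4.43; it is named here after its value was seen, both tissues were under background, and on rank normal scores it was not called (adjusted p = 0.0886). Its relative Stab2, which clears hyaluronan, was at 9.11, 8.24 and 6.19 in hepatocytes and 8.51, 8.94, 9.17 and 9.3 in total liver, where it was under background; it did not pass (adjusted p = 0.0927) and did pass without hepatocyte array 1.

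**Figure D3:**
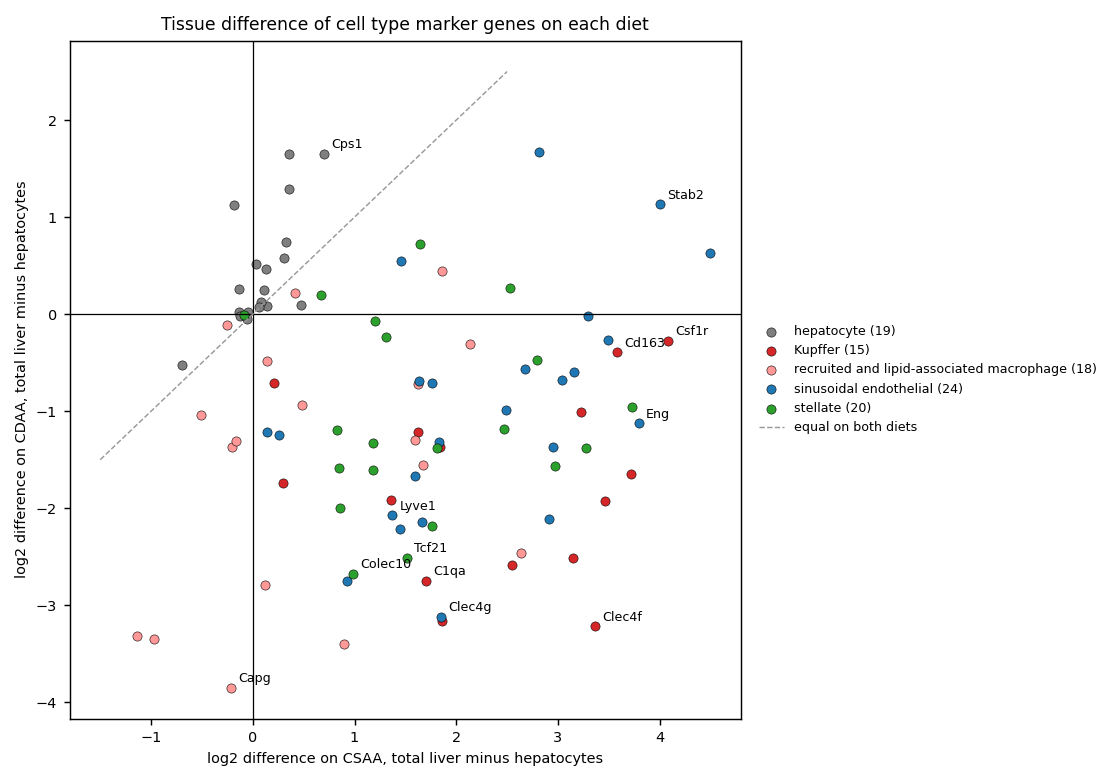
Log2 difference, total liver minus hepatocytes, of the measured marker genes of 5 cell types on CSAA (horizontal) and on CDAA (vertical); each point is 1 gene, and the dashed line marks equal differences on both diets. The macrophage, endothelial and stellate genes lie mostly to the right of 0 and under 0, while the 19 hepatocyte genes lie between −0.53 and 1.65 on CDAA.

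Stellate cell genes were lower in total liver on CDAA, with 11 of 20 measured members lower, 0 higher and a median of −1.26. On CSAA 16 were higher in total liver and 0 lower. Colec10, a collectin that quiescent stellate cells make, was at 10.3, 11.59 and 11.71 in hepatocytes and at 8.56, 8.39, 8.71 and 8.43 in total liver, where it was under background. The difference was −2.68 ± 0.29 (adjusted p = 3.57e-05), or −1.91 with total liver at background. Tcf21, a transcription factor of the same cells, was at 7.54, 9.49 and 9.92 against 6.89, 6.05, 6.36 and 6.58. It was called lower (adjusted p = 0.000605), but total liver was under background and nothing of the difference was left with it set to that level. Des, the filament protein desmin, was called lower (adjusted p = 0.00118) with both tissues under background. Lrat, the enzyme that stores retinol as ester, had overlapping groups, at 10.18, 11.77 and 12.58 against 10.96, 9.02, 10.11 and 10.42. Its difference was −1.38 ± 0.47 (adjusted p = 0.0371) and kept its call in 2 of the 7 fits that each left out 1 array; it lost the call without hepatocyte array 2 or 3 or total liver array 2, 3 or 4, the values running from −2.04 to −0.84.

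Matrix genes were called in both directions. Of 26 measured extracellular matrix genes 4 were higher in total liver and 6 lower, beside 16.2% and 15.1% of all probe sets; the lower count ranged down to 2, and the higher count to 2, when single arrays were left out. Bgn, the proteoglycan biglycan, was at 14.26, 14.49 and 13.49 in hepatocytes and at 12.54, 11.84, 12.27 and 12.04 in total liver, without overlap, a difference of −1.91 ± 0.35 (adjusted p = 0.0013). Fibronectin (Fn1), which hepatocytes themselves secrete into plasma, went the other way, at 16.06, 13.12 and 13.35 against 16.56, 16.42, 16.5 and 16.64. Hepatocyte array 1 lay close to the liver arrays, and the difference was 2.36 ± 0.56 (adjusted p = 0.00587), or 3.26 without that array; under array-median centring it was 1.37 and not called. The fibrillar collagen gene Col3a1 overlapped between tissues, with total liver array 1 at 12.47 above the highest hepatocyte array at 12.45. Its call (−1.17 ± 0.38, adjusted p = 0.0289) held in 2 of 7 fits with 1 array left out and was lost without hepatocyte array 2 or 3 or total liver array 2, 3 or 4, at −1.64 to −0.94. Col1a1, the main scar collagen, was under background in total liver and did not pass (−0.19 ± 0.36, adjusted p = 0.721). Timp1, an inhibitor of matrix proteases, was called lower in total liver (adjusted p = 0.00219), but every liver array was under background, as was hepatocyte array 1 at 6.7, and nothing of the difference was left with total liver set to that level; on rank normal scores it was not called (adjusted p = 0.186).

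Markers of the other cells that a liver can hold were mostly too dim to place. Of the T and NK cell list 18 of 19 genes were under background in both tissues and 1 was called lower; the list mean spanned 4.37 to 5.46 over the hepatocyte arrays and 4.68 to 5.02 over the liver arrays, and 7 genes were called lower without hepatocyte array 1 and 0 without any other single CDAA array. All 10 measured B and plasma cell genes were under background, with 2 called lower, beside 15.1% of all probe sets. The T cell receptor component Cd3e spanned 3.81 to 5.63 over the hepatocyte arrays and 3.54 to 4.85 over the liver arrays, and the B cell gene Cd79a 3.3 to 4.57 and 4.03 to 4.39. The neutrophil list had 10 of 12 genes under background in both tissues; S100a8, an abundant calcium-binding protein of neutrophils, read 4.78, 7.73 and 9.26 in hepatocytes and 7.06, 5.22, 5.22 and 5.13 in total liver, so arrays of each tissue varied as much as the tissues did. It did not pass (−1.60 ± 0.78, adjusted p = 0.129) and did without hepatocyte array 1 (−2.84).

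Genes of bile duct and surface cells were nearly all too dim to resolve. Of 14 measured cholangiocyte genes 4 were called higher in total liver and 1 lower, beside 16.2% and 15.1% of all probe sets, with 13 of the 14 under background in both tissues; total liver array 1 had the highest list mean, 5.56 against 4.58 in the lowest liver array, and 1 was called higher without it or without hepatocyte array 3, and 2 without hepatocyte array 2. The defining ductal genes Krt19 and Epcam did not pass (adjusted p = 0.338 and 0.982). Krt19 was called lower in total liver without hepatocyte array 1 (adjusted p = 0.0357), with array weights (adjusted p = 0.0106) and with array-median centring (adjusted p = 0.0126). Of 8 mesothelial genes, the cells that cover the lobe, 4 were called higher in total liver and 0 lower, all under background, and 2 without hepatocyte array 3. Gpm6a, a membrane protein of that cover, read 8.1, 6.85, 7.56 and 7.21 in total liver and 5.4, 5.85 and 5.7 in hepatocytes, and was called higher (adjusted p = 0.000556), as it was on CSAA.

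Transcripts that cells make soon after a stimulus or injury were lower in total liver. In the immediate early list 17 of 25 measured genes were lower in total liver and 0 higher, with a median of −1.94; on CSAA 7 were lower and 0 higher, with a median of −1.22. The difference between the diets was called for 2 of the 25. Fos, a subunit of the AP-1 transcription factor, was at 15.29, 12.65 and 11.93 in hepatocytes and at 7.28, 6.62, 5.78 and 5.68 in total liver. Every hepatocyte array was far above background and every liver array under it, and the difference was −6.95 ± 1.06 (adjusted p = 0.000386), or −4.00 with total liver set to its background level. Its difference on CSAA was −3.94 (−0.99 with total liver at background), and the difference between the diets did not pass (−3.01 ± 1.502, adjusted p = 0.39). Atf3, a stress-induced transcription factor, was at 14.29, 12.94 and 12.73 against 11.69, 11.37, 9.33 and 10.03. Its difference was −2.72 ± 0.66 on CDAA (adjusted p = 0.00654) and −2.76 on CSAA (−1.29 with total liver, under background there, at that level). Dusp1, the phosphatase that shuts off MAP kinases, was at 17.35, 16.78 and 16.1 against 14.14, 13.7, 13.68 and 12.62, a difference of −3.21 ± 0.40 (adjusted p = 8.95e-05). It did not differ past the threshold on CSAA (−0.40), and the difference between the diets was −2.81 ± 0.56 (adjusted p = 0.00866).

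Jun, the partner of Fos, and Egr1, another early factor, were not called. Jun was at 14.5, 12.45 and 12.9 in hepatocytes and 12.36, 12.1, 12.31 and 11.64 in total liver, without overlap but with a wide spread among hepatocyte arrays (−1.18 ± 0.53, adjusted p = 0.101). Egr1 read 15.35, 12.26 and 11.96 against 12.66, 11.28, 10.4 and 10.66, with overlap (−1.94 ± 0.96, adjusted p = 0.136). In Fos, Jun and Egr1 alike hepatocyte array 1 was the highest, and so it was in the mean of the whole list, at 11.68 against 10.14 and 9.88.

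Among the heat shock genes, whose products refold damaged proteins, 4 of 11 measured members were lower in total liver, 2 higher and 5 not called, beside 15.1% lower and 16.2% higher of all probe sets. The stress-inducible Hsp70 gene Hspa1a was at 13.48, 12.18 and 11.79 in hepatocytes and at 5.88, 6.68, 6.43 and 5.96 in total liver, a difference of −6.25 ± 0.41 (adjusted p = 5.74e-07; −3.19 with total liver at background). Hspa1b, a near-identical copy whose signal on the array may not be separate, gave −5.93 ± 0.53 (adjusted p = 9.68e-06; −2.75 with total liver at background). On CSAA nothing was left of either difference with total liver at background, and the fitted difference between the diets was −4.67 ± 0.57 for Hspa1a (adjusted p = 0.000212). Dnajb1, the cochaperone of Hsp70, was at 10.06, 9.97 and 10.17 against 7.75, 8.5, 7.93 and 7.72, a difference of −2.09 ± 0.30 (adjusted p = 0.00026; −0.78 with total liver at background). The mitochondrial chaperonin Hspd1 went the other way, at 14.95, 13.19 and 12.45 against 15.88, 15.64, 15.6 and 15.73, a difference of 2.18 ± 0.41 (adjusted p = 0.00142).

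**Figure D4:**
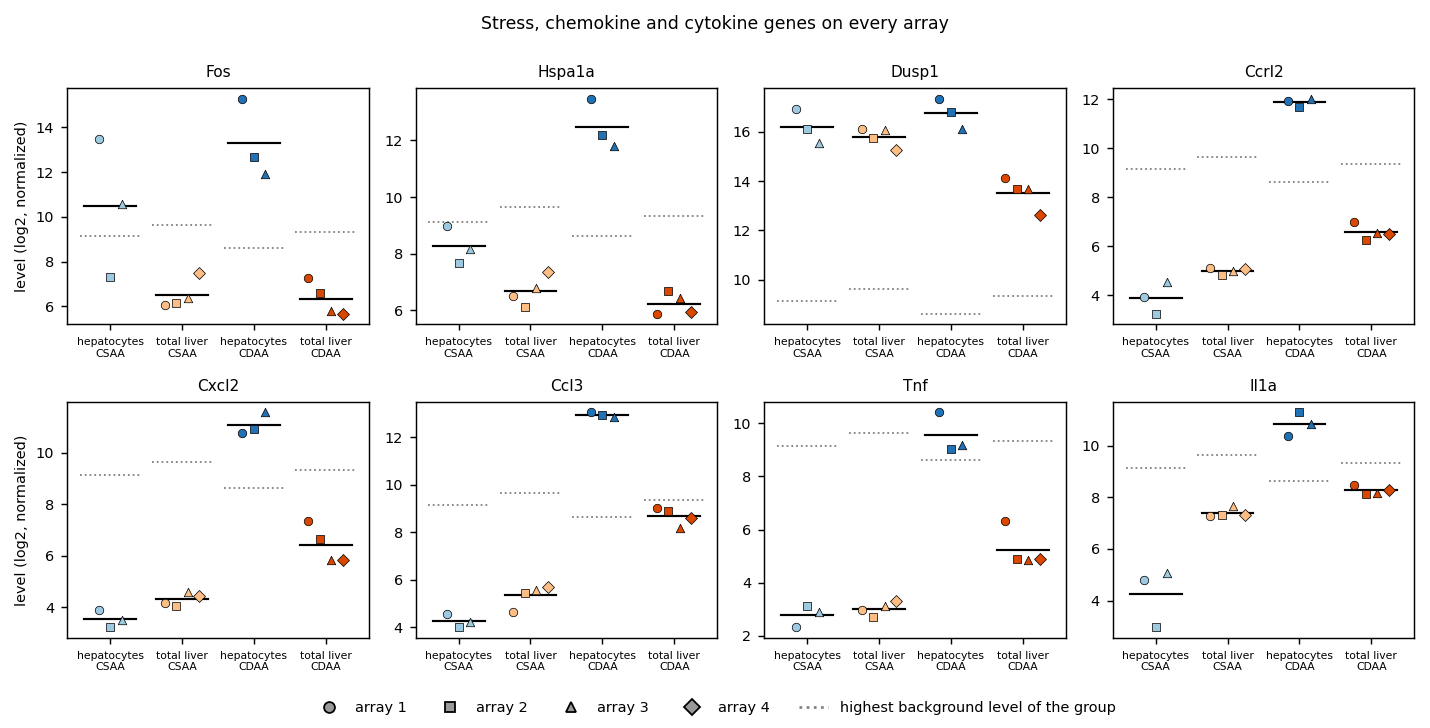
Log2 levels of 8 stress, chemokine and cytokine genes on each of the 14 arrays, by tissue and diet; symbols are arrays, bars are group means and the dotted line is the highest background level among the arrays of a group. For all 8 genes the 3 hepatocyte arrays on CDAA lie above the 4 total liver arrays on CDAA, and 7 of the 8, all but Dusp1, are under background in total liver.

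Chemokines and inflammatory cytokines were lower in total liver than in the hepatocyte preparation. Of 28 measured chemokine genes 17 were lower and 3 higher, with a median of −1.27; of 19 NF-kappaB targets and cytokines 10 were lower and 0 higher, with a median of −1.51. On CSAA 4 chemokines were higher and 2 lower, and 5 NF-kappaB targets were higher and 0 lower. Of all probe sets 11.8% were higher and 12.8% lower on CSAA, and the chemokine count higher there is not far from that share. Some of these genes, Cxcl1 and Cxcl2 among them, are classic targets of NF-kappaB, the transcription factor that macrophages and hepatocytes switch on when they sense microbes or injury. Its part in these differences was not tested. As an example from 1 pair, the 200 bases before the RefSeq start sites of Cxcl1 and Cxcl2, neighbouring chemokine genes, are given 5′ to 3′ (GRCm38.p6, plus strand, chr5:90891045-90891244 and chr5:90903699-90903898). Capitals mark the longest run of letters that the windows share, which holds a form of the kappaB sequence bound by NF-kappaB.
Cxcl1: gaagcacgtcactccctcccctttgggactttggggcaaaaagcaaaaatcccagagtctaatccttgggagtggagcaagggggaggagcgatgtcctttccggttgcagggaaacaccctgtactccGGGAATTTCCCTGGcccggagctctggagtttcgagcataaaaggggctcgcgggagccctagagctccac
Cxcl2: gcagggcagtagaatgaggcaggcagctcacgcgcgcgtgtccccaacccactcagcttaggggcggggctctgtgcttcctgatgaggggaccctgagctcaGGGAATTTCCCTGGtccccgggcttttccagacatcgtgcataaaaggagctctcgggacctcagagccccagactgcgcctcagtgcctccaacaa

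The shared run of 14 bases lies 71 to 58 bases before the start of Cxcl1 and 97 to 84 bases before that of Cxcl2. Searched on both strands of the 250 bases before each start, it was found in 2 of 32851 mouse promoters, 0.00609%, which are these 2. Promoters were at hand for 20 of the 28 chemokine genes. The pair was chosen with its values known, and the match is a description of the letters, not a site shown to be bound.

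Cxcl2, a chemokine that draws neutrophils, was at 10.77, 10.92 and 11.58 in hepatocytes and at 7.36, 6.66, 5.83 and 5.83 in total liver, a difference of −4.67 ± 0.34 (adjusted p = 1.49e-06), or −1.80 with total liver set to its background level. Cxcl1, which acts on the same receptor and was chosen after its values were seen, overlapped between tissues, with total liver array 1 at 10.29 above hepatocyte array 2 at 9.27. Its call (−2.11 ± 0.68, adjusted p = 0.0275) held in 2 of 7 fits with 1 array left out and was lost without hepatocyte array 1 or 3 or total liver array 2, 3 or 4, at −2.81 to −1.58. Cxcl10, an interferon-induced chemokine for T cells that was likewise chosen after its values were seen, was at 12.19, 11.48 and 11.29 against 9.12, 9.13, 8.97 and 8.9, a difference of −2.63 ± 0.49 (adjusted p = 0.0013; −2.36 with total liver at background). On CSAA neither was called, and both were under background in both tissues. The difference between the diets was −5.44 ± 0.48 for Cxcl2 (adjusted p = 1.97e-05) and was not called for Cxcl10 (−2.27 ± 0.69, adjusted p = 0.105).

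Ccl3 and Ccl4, chemokines that macrophages release, were steady across arrays. Ccl3 was at 13.05, 12.93 and 12.86 in hepatocytes and at 9.02, 8.88, 8.19 and 8.61 in total liver, and Ccl4 at 9.67, 10.21 and 9.61 against 6.38, 6.22, 6.3 and 6.04. Their differences were −4.27 ± 0.27 (adjusted p = 3.78e-07) and −3.60 ± 0.20 (adjusted p = 9.22e-08), with total liver under background for both; set to that level, it left −3.65 for Ccl3 and only −0.54 for Ccl4. Tnf, the cytokine tumour necrosis factor, was at 10.41, 9.03 and 9.2 against 6.33, 4.9, 4.87 and 4.88, a difference of −4.30 ± 0.39 (adjusted p = 9.41e-06) that shrinks to −0.26 with total liver set to its background level. Il1a, an alarm cytokine, differed by −2.56 ± 0.38 (adjusted p = 0.000335; −1.53 with total liver at background), and Vcam1, which holds leukocytes to the vessel wall, by −2.19 ± 0.29 (adjusted p = 0.000136). On rank normal scores Il1a lost the call (−1.94, adjusted p = 0.0924). On CSAA both were called higher in total liver, with both tissues under background. Ccrl2, a receptor that presents the chemoattractant chemerin, was at 11.92, 11.66 and 12.02 against 6.97, 6.26, 6.53 and 6.5 (−5.30 ± 0.26, adjusted p = 5.46e-08; −2.58 with total liver at background). Rgs1 and Rgs2, which damp G protein signals, differed by −3.78 ± 0.70 (adjusted p = 0.00125) and −4.30 ± 0.41 (adjusted p = 1.58e-05), the latter −2.69 with total liver at background.

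Between the tissues, macrophage lists differed in the same direction as these genes. The Kupffer list averaged 11.97 to 13.27 in hepatocytes on CDAA and 10.64 to 11.18 in total liver, and the recruited macrophage list 10.24 to 11.91 and 9.39 to 10.59. Among the hepatocyte arrays the genes did not run alike. Array 1 was the lowest for Clec4f, C1qa, Trem2 and Cxcl2, and the highest for Tnf, Cxcl10 and Ccl3. The part of the macrophage genes in the chemokine and cytokine differences was not tested. Proliferation genes went the same way, 11 of 23 measured being lower in total liver and 1 higher, with 14 under background in both tissues. The lower count dropped to 7 without hepatocyte array 2 or total liver array 1 or 4. Ccnb2, a mitotic cyclin, was at 9.06, 9.38 and 9.61 against 6.47, 7.39, 7.71 and 8.04; it was called (−1.95 ± 0.35, adjusted p = 0.00117), but total liver was under background and only −0.06 was left with it set to that level. Cdk1, the kinase it drives, was called lower (adjusted p = 0.00112) with both tissues under background, a call lost on rank normal scores (adjusted p = 0.293). Pkm, the pyruvate kinase of cells other than hepatocytes, was at 12.18, 13.07 and 12.92 against 11.45, 10.89, 10.16 and 10.77, a difference of −1.91 ± 0.28 (adjusted p = 0.00028).

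Hepatocyte genes were higher in total liver or not called. Of 19 measured hepatocyte markers 5 were higher in total liver and 0 lower, beside 16.2% and 15.1% of all probe sets, with a median of 0.25. On CSAA 0 were higher and 1 lower. The difference between the diets was called for 0 of the 19, and for 4, all higher, without hepatocyte array 1. Single arrays moved the count of 5, to 2 without hepatocyte array 2 or 3 and to 3 without total liver array 1 or 2. These counts depended on the scaling: with deposited values centred on array medians, 0 of the 19 were higher and 14 lower, with a median of −1.42 where all probe sets had −0.29. Cps1, the enzyme that commits ammonia to the urea cycle, was at 16.29, 15.01 and 15.52 in hepatocytes and at 17.4, 16.92, 17.42 and 17.3 in total liver, a difference of 1.65 ± 0.26 (adjusted p = 0.000455). Apob, the protein around which very low density lipoproteins are built, was at 18.17, 15.99 and 16.42 against 18.64, 18.43, 18.49 and 18.49 (1.65 ± 0.38, adjusted p = 0.00524). In both genes hepatocyte array 1 lay nearest the liver arrays. Under array-median centring neither kept its call, at 0.36 for Cps1 and −0.076 for Apob, while Alb (−1.67) and Cyp2e1 (−1.97) were then called lower in total liver. Cyp2e1, a pericentral oxidase, did not pass (0.09 ± 0.25, adjusted p = 0.812).

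Among genes that make fat, 10 of 20 measured were higher in total liver and 1 lower, with a median of 1.33, against 1 higher and 0 lower on CSAA. The difference between the diets was called for only 1 of the 20, higher on CDAA, with a median of 0.73. Without hepatocyte array 1 it was called for 7 higher and 1 lower. The count of 10 dropped to 4 without hepatocyte array 3, to 5 without array 2 and to 6 without total liver array 1, 2 or 4. It was 13 without hepatocyte array 1, and was 7, with 2 lower, under array-median centring. Mlxipl, the carbohydrate-sensing factor ChREBP, was at 10.51, 9.27 and 9.59 in hepatocytes and at 12.28, 12.69, 12.75 and 12.74 in total liver, a difference of 2.83 ± 0.29 (adjusted p = 2.61e-05). Acaca, which makes the malonyl-CoA from which fatty acids are built, was at 10.37, 7.92 and 8.96 against 11.26, 12.09, 10.53 and 11.33 (2.22 ± 0.52, adjusted p = 0.00568). Dgat2, the last step of triglyceride synthesis, was at 14.68, 13.67 and 13.09 against 15.11, 15.34, 15.26 and 15.12 (1.40 ± 0.28, adjusted p = 0.00234), and the desaturase Fads2 differed by 1.38 ± 0.29 (adjusted p = 0.00281). None of these 4 overlapped between the tissues, beside 18.1% of all probe sets that were higher in total liver without overlap. Under array-median centring Dgat2 (0.61) and Fads2 (−0.22) lost the call. The fatty acid synthase Fasn was more variable, at 12, 9.35 and 8.18 against 11.5, 12.84, 10.38 and 11.42, and did not pass (1.69 ± 0.82, adjusted p = 0.128), though it did without hepatocyte array 1 (2.77, adjusted p = 0.00635). Scd1, the bright stearoyl-CoA desaturase, did not pass either (0.71 ± 0.43, adjusted p = 0.222).

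Genes for the coating and storage of fat did not move as one group. Of 18 lipid droplet genes 2 were higher in total liver and 2 lower, beside 16.2% and 15.1% of all probe sets. Without hepatocyte array 1, 6 were higher, and 1 without array 2. Plin2, the coat protein of droplets, was at 15.5, 15.31 and 14.74 against 16.48, 15.88, 15.52 and 15.68, without overlap but short of the threshold (0.70 ± 0.29, adjusted p = 0.0749; 0.85 and past it without hepatocyte array 1). Cidec, which fuses droplets, overlapped (0.54 ± 0.34, adjusted p = 0.238). Hilpda, an inhibitor of triglyceride breakdown, was at 8.7, 10 and 10.65 in hepatocytes and at 6.86, 6.41, 5.71 and 5.83 in total liver, under background there (−3.58 ± 0.44, adjusted p = 8.18e-05; −0.49 with total liver at background). Of 14 uptake genes 3 were higher and 5 lower, beside the same shares of all probe sets, 16.2% and 15.1%. The scavenger receptor Cd36, which takes up fatty acids, was at 14.21, 15.23 and 15.95 against 13.95, 13.13, 13.62 and 13.48 (−1.58 ± 0.37, adjusted p = 0.00525), and on CSAA it was called higher in total liver, with both tissues under background. Gpihbp1, the endothelial anchor of lipoprotein lipase, differed by −4.30 ± 0.59 (adjusted p = 0.000195), or −3.11 with total liver, which was under background, at that level.

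Bile and phospholipid handling showed further genes higher in total liver. In the bile acid list 5 of 22 measured genes were higher and 1 lower, not far from the 16.2% of all probe sets; 3 were higher without hepatocyte array 2 or 3 or with array-median centring, and 8 without hepatocyte array 1. Abcc2, the canalicular pump for conjugated bilirubin, was at 15.93, 14.18 and 14.55 in hepatocytes and at 16.94, 16.97, 16.97 and 17.06 in total liver (2.10 ± 0.32, adjusted p = 4e-04). Abcb4, which moves phosphatidylcholine into bile, was at 15.34, 13.55 and 13.7 against 16.23, 15.97, 15.93 and 16.15 (1.87 ± 0.34, adjusted p = 0.0011), and Cyp27a1, of the alternative route to bile acids, differed by 1.45 ± 0.34 (adjusted p = 0.00531). Under array-median centring these differences were 0.92, 0.95 and 0.74, the last not called. Cyp7a1, the rate-limiting enzyme of the main route, did not pass (0.85 ± 0.70, adjusted p = 0.377). In the choline and one-carbon list 5 of 18 were higher and 2 lower, beside 16.2% and 15.1% of all probe sets, with differences from −1.28 to 4.43. The higher count was 3 without hepatocyte array 2 or 3 or total liver array 1, 2 or 4, and 9 without hepatocyte array 1. Under array-median centring 5 were higher and 5 lower. Pcyt2, which makes the head group of phosphatidylethanolamine, was at 12.75, 11.8 and 11.66 against 14.29, 14.02, 14.04 and 13.88 (1.99 ± 0.25, adjusted p = 9.43e-05), and Dmgdh, which breaks down the choline product dimethylglycine, differed by 2.32 ± 0.45 (adjusted p = 0.00165). Gnmt, which disposes of spare methyl groups, was lower in total liver, at 15.89, 16.54 and 17.56 against 15.65, 15.37, 15.34 and 15.18 (−1.28 ± 0.31, adjusted p = 0.0062), and differed by −1.27 on CSAA.

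Other hepatocyte functions gave few calls, to be set against 16.2% of all probe sets higher and 15.1% lower. Of 22 fatty acid oxidation genes 5 were higher in total liver and 0 lower, of 22 cytochrome P450 genes 3 and 0, of 19 urea cycle and amino acid genes 5 and 1, and of 20 conjugation enzymes 1 and 1. Under array-median centring the same lists gave 2 higher and 4 lower, 1 and 5, 2 and 6, and 0 and 11. Single arrays moved these counts. The fatty acid oxidation count was 9 higher without hepatocyte array 1, 3 without array 2 and 1 without array 3, and 2 without total liver array 1, 3 or 4. The P450 count was 9 without hepatocyte array 1, 2 without array 2 or 3, and 6 without total liver array 1. The urea cycle count was 3 without hepatocyte array 2 or 3. In the conjugation list 4 were lower without hepatocyte array 1, and 3 higher without total liver array 1.

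Among secreted defence proteins, 8 of 23 measured complement and coagulation genes were higher in total liver and 0 lower. Single arrays moved that count, to 4 without hepatocyte array 2 or total liver array 2 and to 5 without hepatocyte array 3 or total liver array 4, and with array-median centring it was 5 higher and 9 lower. Coagulation factor V (F5) was at 15.18, 12.9 and 12.54 in hepatocytes and at 15.57, 15.45, 15.79 and 15.79 in total liver (2.11 ± 0.48, adjusted p = 0.00451), and complement C5 (Hc) differed by 2.08 ± 0.35 (adjusted p = 0.000721). The acute phase genes Saa1 and Lcn2, which inflammation raises, overlapped between tissues on CDAA (0.36 ± 0.55, adjusted p = 0.654, and 0.98 ± 0.65, adjusted p = 0.265), and both were higher in total liver on CSAA, by 1.73 and by 2.89 (0.85 with hepatocytes at background).

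Regulators of hepatocyte identity followed the metabolic genes in part, while the lists of stress targets gave few calls. Of 17 hepatocyte transcription factors 6 were higher in total liver and 1 lower, and 3 were higher without hepatocyte array 2 or 3. Prox1, a factor of hepatocyte fate, was at 11.96, 9.89 and 9.8 in hepatocytes and at 12.62, 11.97, 13.43 and 12.98 in total liver (2.20 ± 0.52, adjusted p = 0.00569), and Ppara, the fasting-response receptor, differed by 1.89 ± 0.48 (adjusted p = 0.00798). The exception was Nr1h3, the sterol receptor LXR alpha that macrophages share, at 12.91, 14.31 and 14.21 against 12.34, 12.4, 12.25 and 12.01 (−1.56 ± 0.31, adjusted p = 0.0021). In the integrated stress response list 4 of 17 measured genes were higher in total liver, 1 lower and 12 not called, with a median of 0.16. These counts are not far from the 16.2% higher and 15.1% lower of all probe sets. The 2 with the largest rise were its targets Trib3, by 2.64 ± 0.52 (adjusted p = 0.00189), and Atf5, by 2.27 ± 0.56 (adjusted p = 0.00704). Of 15 p53 targets 4 were higher, 0 lower and 11 not called, beside the same shares, with a median of −0.05. Trp53inp1 had the largest rise, 2.56 ± 0.46 (adjusted p = 0.00101). Hmox1, the haem-degrading enzyme of stressed cells and macrophages, was lower, at 14.23, 14.69 and 14.08 against 13.89, 12.78, 12.24 and 12.36 (−1.52 ± 0.35, adjusted p = 0.00515). The male-biased gene Hsd3b5 varied within total liver from 5.49 to 8.47, under background, and was not called (−1.43 ± 0.54, adjusted p = 0.0578); it was without hepatocyte array 1 (−1.72, adjusted p = 0.0324) or total liver array 2 (−2.04, adjusted p = 0.00224).

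**Figure D5:**
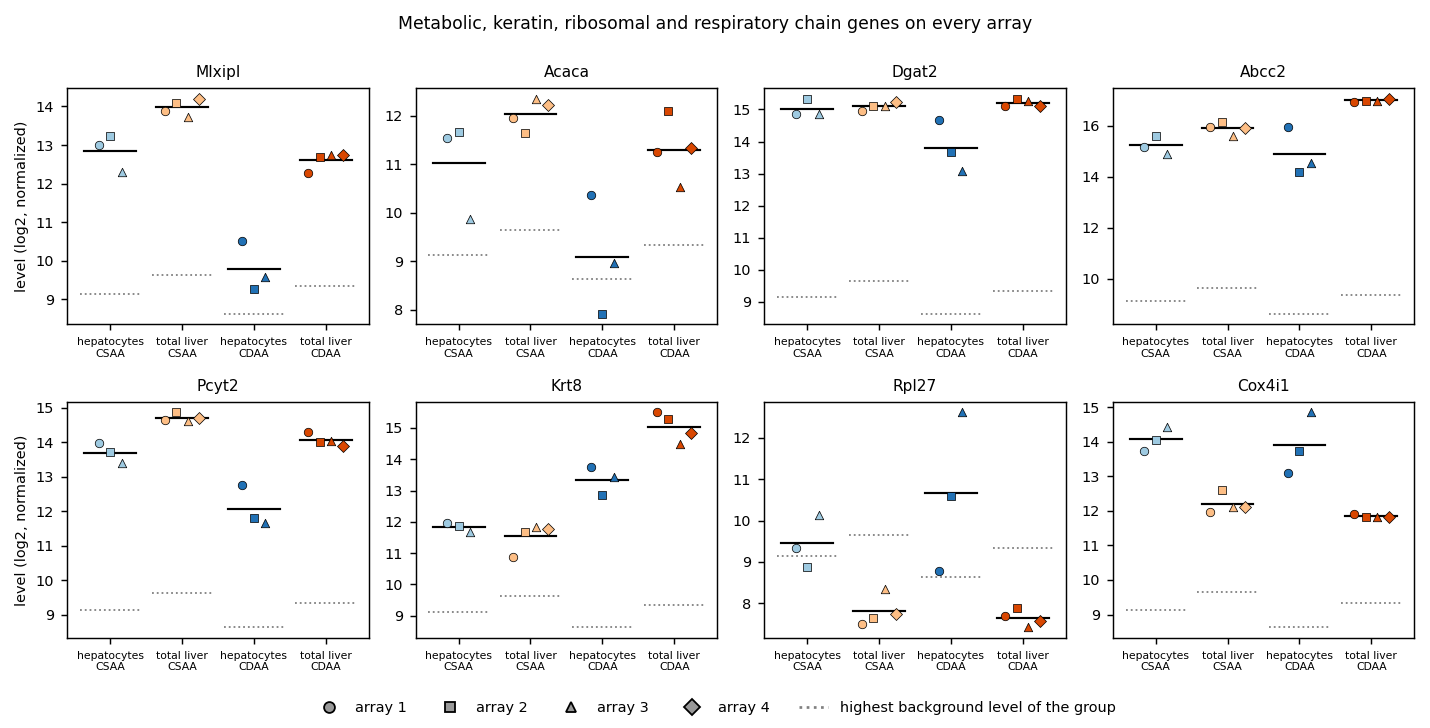
Log2 levels of 8 metabolic, keratin, ribosomal and respiratory chain genes on each of the 14 arrays, by tissue and diet; symbols are arrays, bars are group means and the dotted line is the highest background level among the arrays of a group. On CDAA the first 6 genes lie higher on the 4 total liver arrays than on the 3 hepatocyte arrays, and Rpl27 and Cox4i1 lie lower on them.

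Genes of the protein-making and respiring machinery were lower in total liver. Of 19 measured ribosomal protein genes 14 were lower and 1 higher, with a median of −1.14, and on CSAA 3 were lower and 0 higher. Of all probe sets 15.1% were lower on CDAA and 12.8% on CSAA, so the CSAA count is not far from that share. The difference between the diets was called for 0 of the 19, and for 7, all lower, without hepatocyte array 1. The count of 14 dropped to 7 without hepatocyte array 3, which had the highest list mean at 16.03, against 14.41 in hepatocyte array 1 and 13.98 to 14.43 in total liver. Rps14, of the small subunit, was at 12.77, 14.12 and 15.68 in hepatocytes and at 12.3, 12.16, 11.64 and 11.47 in total liver (−2.29 ± 0.47, adjusted p = 0.00253). Rpl27, of the large subunit, was at 8.77, 10.58 and 12.62 against 7.7, 7.88, 7.42 and 7.57 (−3.02 ± 0.60, adjusted p = 0.00203; −1.37 with total liver at background), and Rpl19 differed by −1.42 ± 0.27 (adjusted p = 0.00135). Of 21 respiratory chain genes 10 were lower and 1 higher, and 8 were lower on CSAA. Cox4i1, of cytochrome c oxidase, was at 13.1, 13.73 and 14.85 against 11.9, 11.84, 11.82 and 11.81 (−2.05 ± 0.32, adjusted p = 0.000416) and differed by −1.88 on CSAA. Uqcrc1, of complex III, differed by −1.13 ± 0.19 (adjusted p = 0.000648), while Atp5b, the catalytic subunit of ATP synthase, did not pass (−0.10 ± 0.17, adjusted p = 0.674).

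Among genes above background in total liver whose tissues did not overlap, the 8 most raised there were not in the cell type lists. Slc4a4, a bicarbonate transporter, was at 8.97, 6.95 and 7.32 in hepatocytes and at 12.09, 11.39, 11.82 and 11.52 in total liver (3.96 ± 0.42, adjusted p = 3.52e-05). Huwe1, a ubiquitin ligase, was at 10.88, 9.88 and 8.51 against 13.3, 13.87, 13.25 and 13.17 (3.64 ± 0.42, adjusted p = 5.82e-05), and Akap9, a scaffold at the Golgi and centrosome, at 8.29, 7.85 and 7.68 against 11.31, 11.54, 11.43 and 11.59 (3.53 ± 0.19, adjusted p = 7.64e-08). The splicing factor Srsf5 followed with 3.31 ± 0.28 (adjusted p = 6.78e-06), then the RNA surveillance kinase Smg1 with 3.03 ± 0.23 (adjusted p = 1.82e-06), the ribosome-binding membrane protein Rrbp1 with 3.02 ± 0.41 (adjusted p = 0.000174), the apoptosis inhibitor Birc6 with 3.00 ± 0.36 (adjusted p = 7.59e-05) and the Golgi protein Golgb1 with 2.98 ± 0.25 (adjusted p = 5.7e-06). All but Huwe1 were also called higher in total liver on CSAA, where Akap9, Srsf5 and Smg1 differed by 2.47, 2.51 and 2.30 (2.04 for Smg1 with hepatocytes at background). The array's own intron control probe sets moved the same way: their median rank among tested probe sets was 50.06% to 51.26% in total liver on CDAA and 34.62% to 38% in hepatocytes. On CSAA it was 50.82% to 52.63% and 40.34% to 40.82%. The part of intron signal in these differences was not tested.

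With all arrays in the fit, few named genes were set apart by diet in the direction of total liver. That rested on hepatocyte array 1 on CDAA. Without it 25 more of the named genes were called for the difference between the diets. All of these but Cdk1, Rpl27, Rps14 and S100a8 were higher on CDAA. Array weights also added 25. Krt8, a keratin that stressed hepatocytes raise, was at 13.74, 12.85 and 13.43 in hepatocytes and at 15.5, 15.29, 14.48 and 14.83 in total liver on CDAA (1.69 ± 0.29, adjusted p = 0.000856). On CSAA it differed by −0.31, and the difference between the diets was 1.99 ± 0.41 (adjusted p = 0.0119). Gpt2, a mitochondrial alanine aminotransferase, Gpat3, which starts glycerolipid synthesis, and Gramd1c, a sterol carrier, were likewise higher in total liver on CDAA, by 1.87 ± 0.30 (adjusted p = 0.000474), 1.94 ± 0.29 (adjusted p = 0.00032) and 2.80 ± 0.27 (adjusted p = 1.58e-05; 2.05 for Gramd1c with hepatocytes at background). The difference between the diets was 2.04 for Gpt2, 2.15 for Gpat3 and 2.06 for Gramd1c, each called in all 14 fits that left out 1 array. Under array-median centring that call was lost for Krt8 (1.22) and Gpt2 (1.69). Apoa4, an apolipoprotein that fatty liver induces, was not called on CDAA, at 18.45, 18.54 and 18.47 against 19.11, 18.45, 18.66 and 18.57 (0.21 ± 0.29, adjusted p = 0.616). On CSAA it was lower in total liver (−2.50), and the difference between the diets was 2.71 ± 0.41 (adjusted p = 0.00128).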

How the data were processed

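RNA of 14 samples was measured on Clariom S mouse arrays, each sample once. The deposited values are log2 signals that, per the submitters' processing notes, the authors made by RMA, which corrects background, normalizes and summarizes per probe set; the RMA version is not given in the sources used here. Array medians differed by tissue, so the deposited values look normalized per tissue. All 14 arrays were therefore quantile-normalized together over 22206 probe sets, after 6640 controls of 28846 had been left out. One symbol was found for 19572 probe sets and none for 2634; of several probe sets of a gene the brightest stood for it. limma 3.58.1 in R 4.3.3 fitted 1 mean per tissue and diet (10 residual degrees of freedom), with two-sided moderated tests and Benjamini-Hochberg adjustment over all 22206. The number of arrays limits the precision, and an exact permutation test of 3 against 4 arrays could not go below 0.0571. Array signal has no counting depth. The p-values set a difference against the spread between samples, with 1 estimate per probe set shared by all 4 groups. The groups were not equally tight. Arrays deviated from their group mean by 0.36 to 0.59 (root mean square) in hepatocytes on CDAA and by 0.22 to 0.29 in total liver on CDAA. Fitted with the compared groups alone, 2838 probe sets were higher and 2708 lower on CDAA.

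Members of the comparison and the 52 gene lists were chosen with earlier results of these data known; 91 of 989 list members found no probe set. Lists are described by counts and medians, without a test. Named genes were the 12 highest and 12 lowest on CDAA and the 8 highest and 8 lowest for the difference between diets (called, not predicted genes, and above background in the higher group or in at least 1 group), up to 4 members per list by p, up to 2 by p of the diet difference and up to 2 not called, and a fixed set of liver genes; Stab1, Cxcl1 and Cxcl10 were added. Promoters come from RefSeq (GRCm38.p6). The fit was tested on simulated data. Alternatives were rank normal scores, array-median centring, the compared groups alone, trend and robust moderation, filters on dim probe sets, array weights, a replicate block, averaging the probe sets of a gene and leaving out each array. Replicate numbers were not used as pairs in the main fit, since the labels do not say whether hepatocytes and liver shared an animal. Residuals of arrays with the same number correlated at −0.12 to −0.024 on CDAA and −0.062 to 0.077 on CSAA. With so few arrays these values cannot show whether animals were shared.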

Additional observations from a re-analysis of the deposited data

Results flagged for a closer look

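In 6 of the 122 gene levels and list means that were checked, 1 total liver array on CDAA lay far from the other 3, and each time it was array 1. Chance flags any of the arrays in about 1 of 20 items, which is not the rate for a given array. The items share arrays and genes and are not independent. The ratio of the gap of array 1 to the whole range was 0.981 for Tnf, 0.953 for S100a8, 0.925 for Rgs2, 0.911 for Vcam1 and 0.848 for Mmp12, in each of which array 1 was the highest. It was 0.871 for Mlxipl, in which array 1 was the lowest. Tnf read 6.33 on that array and 4.87 to 4.9 on the others, and Vcam1 read 11.36 against 10.43 to 10.51.

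For 55 of the 114 genes named, the tissue difference on CDAA differed from that on CSAA by limma's test of the difference itself, 46 of them lower on CDAA and 9 higher. Without hepatocyte array 1 on CDAA 25 more were called, most of them higher on CDAA. The values are log2, the tissue difference on CDAA minus that on CSAA. For 43 of the 55 at least 1 of the 4 groups was under background, and for 27 both tissues were on CSAA, so that their values are fitted differences and not resolved sizes. The 12 with no group under background were Akap9, Apoa4, Bgn, Clec4g, Dnase1l3, Dusp1, Eng, Fcgr2b, Gpt2, Huwe1, Krt8 and Mlxipl. Among macrophage genes they were −6.58 for Clec4f, −5.39 for Cd5l, −5.37 for Vsig4, −5.13 for C1qc, −5.10 for Lyz2, −4.45 for C1qa, −4.36 for Csf1r, −4.30 for Trem2, −3.97 for Cd163, −3.63 for Capg and −2.90 for Mmp12. The class II genes H2-DMb1 and H2-Ab1 stood at −5.53 and −4.30. Among endothelial genes the values were −4.97 for Clec4g, −4.92 for Eng, −3.80 for Fcgr2b, −3.76 for Kdr, −3.67 for Dnase1l3, −3.45 for Gpihbp1, −3.44 for Lyve1, −3.31 for Tek and −2.87 for Stab2. Stellate and matrix genes gave −4.12 for Bgn, −4.03 for Tcf21, −3.66 for Colec10, −3.19 for Lrat, −2.51 for Timp1, −2.48 for Col3a1 and −2.43 for Des.

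Signalling and stress genes made up most of the rest. Ccrl2 stood at −6.40, Rgs1 at −6.06, Rgs2 at −5.80, Il1a at −5.69, Cxcl2 at −5.44, Ccl3 at −5.36, Vcam1 at −5.21, Tnf at −4.54 and Ccl4 at −2.49. The stress genes gave −4.98 for Hspa1b, −4.67 for Hspa1a, −2.81 for Dusp1, −2.26 for Hmox1 and −2.13 for Dnajb1. Cd36 stood at −3.09, Pkm at −2.94 and Hilpda at −2.42. The 9 genes higher on CDAA were Apoa4 at 2.71, Huwe1 at 2.67, Gpat3 at 2.15, Gramd1c at 2.06, Gpt2 at 2.04, Krt8 at 1.99, Mlxipl at 1.69, Golgb1 at 1.59 and Akap9 at 1.06.

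On rank normal scores 13 of these calls were lost: Akap9, Capg, Col3a1, Golgb1, Gpihbp1, Hilpda, Hmox1, Huwe1, Lrat, Mlxipl, Stab2, Timp1 and Tnf (adjusted p = 0.146 for Tnf). Of the 55 calls 10 were lost in at least 1 of the 14 fits that left out 1 array. The call held in 13 fits for Col3a1, in 12 for Huwe1 and Hmox1, in 10 for Golgb1, in 4 for Mlxipl and Gpihbp1, and in 3 for Akap9, Hilpda, Stab2 and Timp1. Their direction was kept in all of them, with Stab2, for example, between −3.73 and −2.24.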

How the results depend on the processing

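Probe set counts followed the scaling and single arrays. With deposited values centred on array medians, 7256 were lower in total liver on CDAA and 6578 on CSAA, and 47 were higher for the difference between diets; with rank normal scores that last count was 40. Without probe sets under background in every compared group, 1802 were higher and 1783 lower on CDAA, and 594 and 781 on CSAA. Array weights, which gave hepatocyte array 1 on CDAA 0.21 and array 2 2.68, called 5628 higher and 5479 lower on CDAA, and 1391 and 1514 for the difference between diets. Leaving out 1 array at a time gave 2594 to 4539 higher and 2429 to 4219 lower on CDAA, 1997 to 2323 and 2101 to 2611 on CSAA, and 36 to 1233 and 453 to 1308 for the difference between diets, whose highest counts came without hepatocyte array 1 on CDAA; the count higher for that difference was also 131 without hepatocyte array 3 on CSAA and 36 without total liver array 4 on CDAA. With the replicate number as a block, 3135 were higher and 2872 lower on CDAA, 2199 and 2392 on CSAA, and 65 and 554 for the difference. The labels do not say that equal numbers mean a shared animal.

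Of the 114 genes named, 88 were called on CDAA. Array-median centring turned Alb to −1.67, Apoa4 to −1.85, Apob to −0.076, Cyp2e1 to −1.97, Fads2 to −0.22 and Scd1 to −1.41; the deposited maxima were 19.66 to 19.92 in hepatocytes on CDAA and 19.23 to 19.36 in total liver. Rank normal scores ended 8 calls on CDAA and 13 of the difference between diets, some of them in genes named above as dependent on 1 array. The compared groups alone ended 4 on CDAA (Col3a1, Mmp12, Lrat, Cxcl1), and the replicate block 2 (Col3a1, Lrat). Trend and robust moderation and averaging the probe sets of a gene ended none on CDAA. Signal near background limits the T, B, neutrophil, ductal and mesothelial lists.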
